A study of Caenorhabditis elegans with 2 samples.

Results

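The 276 tRNA genes of the X chromosome of Caenorhabditis elegans were described by the SNPC-4 binding regions beside them. They are every gene on X with the biotype tRNA in the RefSeq annotation of WBcel235 (the ce11 build), out of 612 nuclear tRNA genes and 46890 nuclear genes of any kind. A gene was tied to the region with the highest signal value whose summit lay within 200 bp of the gene body, in the list made from both replicates pooled and in the list of each replicate. All 276 genes stayed in, with or without a region. The libraries were 2 chromatin immunoprecipitations with sequencing (ChIP-seq), labelled biological replicates 1 and 2, from mixed-stage embryos of both sexes taken as whole organisms. The worms were strain OP179, with the genotype unc-119(ed3) III; wgIs179, in which the insertion wgIs179 carries snpc-4 tagged with eGFP; the labels do not say whether the untagged gene was intact. The antibody is labelled snpc-4, and whether it was raised against the protein or the tag is not given in the sources used here. Both libraries carry the same genotype, so there is 1 group, and every value below is a description of 1 strain and stage without a test between conditions. The lists rest on a control experiment that is not analysed here, and how deeply each library was sequenced is unknown. Whole embryos mix cell types, so a weak region in all cells and a strong one in few cells cannot be told apart.

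tRNA genes are transcribed by RNA polymerase III (Pol III) from promoters that lie inside the gene. The A box and the B box are bound by TFIIIC, which places TFIIIB just upstream of the gene, and TFIIIB recruits the polymerase. SNPC-4 belongs to SNAPc, the complex that activates genes for small nuclear RNAs (snRNAs). SNAPc binds an upstream proximal sequence element at those genes and at genes for spliced leader RNAs. It also serves Pol III genes with upstream promoters, such as those of U6 snRNA and the RNA of RNase P. Standard tRNA genes carry no such element in the textbook account.

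The X tRNA genes with the strongest regions are shown here, so that a reader can see the internal promoter and the bases before it. Each sequence runs 5′ to 3′ on the strand of the gene, from 60 bases before the mature tRNA gene to 6 bases after it, read from RefSeq WBcel235. Capitals mark the B box core GTTCGA. The first 6 are the genes with the highest pooled signal. The last, rte-3, was chosen after its values were seen, because its gene body has the same bases as those of rte-1 and M02F4.t2 and it had no region in any of the 3 lists.
M02F4.t2, tRNA-Glu, minus strand, chrX:3035970-3036107: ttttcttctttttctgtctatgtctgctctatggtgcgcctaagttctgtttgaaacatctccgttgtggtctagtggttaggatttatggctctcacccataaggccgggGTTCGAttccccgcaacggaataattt
M02F4.t1, tRNA-Gly, plus strand, chrX:3036104-3036241: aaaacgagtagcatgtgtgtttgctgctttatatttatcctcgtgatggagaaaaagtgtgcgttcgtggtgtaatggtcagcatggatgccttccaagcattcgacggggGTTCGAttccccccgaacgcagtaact
C04A11.t1, tRNA-Leu, plus strand, chrX:13665495-13665679: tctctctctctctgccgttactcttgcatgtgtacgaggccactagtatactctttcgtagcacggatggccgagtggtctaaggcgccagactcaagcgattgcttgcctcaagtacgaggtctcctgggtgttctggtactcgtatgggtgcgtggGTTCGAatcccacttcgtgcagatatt
R11.t1, tRNA-Tyr, minus strand, chrX:16209763-16209912: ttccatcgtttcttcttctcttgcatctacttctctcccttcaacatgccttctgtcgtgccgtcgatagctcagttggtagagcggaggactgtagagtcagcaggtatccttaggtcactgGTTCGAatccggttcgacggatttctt
rte-1, tRNA-Glu, plus strand, chrX:14015884-14016021: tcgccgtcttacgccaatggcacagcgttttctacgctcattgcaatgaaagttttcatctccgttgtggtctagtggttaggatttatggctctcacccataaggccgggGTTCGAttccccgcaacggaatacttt
C04E7.t1, tRNA-Leu, minus strand, chrX:353249-353396: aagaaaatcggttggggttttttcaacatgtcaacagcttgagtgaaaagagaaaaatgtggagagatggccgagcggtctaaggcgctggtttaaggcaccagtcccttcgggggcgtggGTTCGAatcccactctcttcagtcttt
rte-3, tRNA-Glu, plus strand, chrX:7680980-7681117: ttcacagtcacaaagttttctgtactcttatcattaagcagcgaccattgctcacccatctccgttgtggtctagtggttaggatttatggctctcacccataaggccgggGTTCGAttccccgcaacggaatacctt
All 7 carry the B box core at the end of the gene. The stretches before the gene differ, including those of the 3 genes with the same body.

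The lists need a word before the counts. Each of the 3 ce11 lists holds 30000 regions, peaks and background together, as the authors passed them to their reproducibility step (irreproducible discovery rate, IDR). A region found there is called a candidate region. The authors' thresholded ce11 list holds 213 peaks, of which 0 lie on X, so it holds no peak at these genes. A region is called strong here when its signal value is among the 1099 highest of its list, 1099 being the number of thresholded peaks on the older build ce10. With 213 as the limit no X tRNA gene would be strong in the pooled list, where the first X tRNA region stood at rank 299. Where no list is named, strong refers to the pooled list. In the pooled list this limit falls at a signal value of 31.3. The signal value is the authors' own measure for each region, in a unit the sources used here do not give. Over the pooled list it had a median of 9.63 and a highest value of 4055. Intervals are Wilson 95% intervals for shares of genes; they cover counting error only, and genes that share a region or a sequence are not independent.

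Candidate regions lay beside 136 X tRNA genes and strong ones beside 31. In the pooled list 136 of 276 X tRNA genes had a candidate region (49.3%, interval 43.4 to 55.1%), against 51.5% of the 336 tRNA genes of chromosomes I to V and 34.1% of all nuclear RefSeq genes. In all 3 lists 85 X tRNA genes had one (30.8%, 25.6 to 36.5%), against 35.1% of the autosomal tRNA genes and 18.4% of all nuclear genes. A strong region lay beside 31 X tRNA genes (11.2%, 8.03 to 15.5%), against 9.23% of the autosomal tRNA genes and 2.43% of all nuclear genes. The shares over all nuclear genes include long gene bodies, which have more room for a summit. They also include annotated genes for Piwi-interacting RNAs (piRNAs), to which SNPC-4 also binds, and these were not counted apart. Of the 645 other X genes within the length range of the X tRNA genes, 64 to 120 bp, 29.3% had a candidate region and 2.95% a strong one (1.89 to 4.55%). Neither tRNA pseudogenes of that length nor non-coding genes that overlap an X tRNA gene were taken out of the 645. The X tRNA genes thus had close to the autosomal share at each of these 3 levels, with overlapping intervals, and the X and autosomal shares were not tested against each other.

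X holds 45.1% of the nuclear tRNA genes on 17.7% of the nuclear bases. Of the 251 strong pooled regions on X, 28 (11.2%) had a tRNA gene within 200 bp of the summit, and of its 5677 candidate regions 136 (2.40%) did. Bases within 200 bp of a tRNA gene make up 0.680% of X. The 31 genes with a strong region used 28 different regions, since 3 regions each served a pair of neighbouring genes. The 136 genes with a candidate region used 125.

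The highest X tRNA signals were far under the highest of the list. The first X tRNA region had a pooled signal of 68.4 and stood at rank 299, behind 298 regions of which 55 were also on X. The highest strong region on X reached 886. On the autosomes 11 tRNA genes lay above the first X tRNA gene. They were led by the selenocysteine tRNA gene K11H12.t1 at 686, the tRNA-Lys gene M01E5.t1 at 569 and the tRNA-Ile gene C27A2.t1 at 501. Only 1 of the 11, M01E5.t1 at 569, has a small RNA gene within 500 bp, the SL2-type spliced leader gene sls-2.9. Counted from the top of the list down, the X and autosomal shares lay close together only at deeper ranks. Each count includes all better ranks, so the autosomal counts include those 11 genes. Among ranks up to 250 there were 0 X tRNA genes and 11 autosomal ones, among ranks up to 500 there were 7 (2.54%) and 13 (3.87%), and among ranks up to 5000 there were 26.8% and 29.8%. The median pooled signal of genes with a strong region was 40.6 on X and 42.8 on the autosomes. Over all genes with a candidate region it was 16.0 on X and 16.4 on the autosomes.

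**Figure D1:**
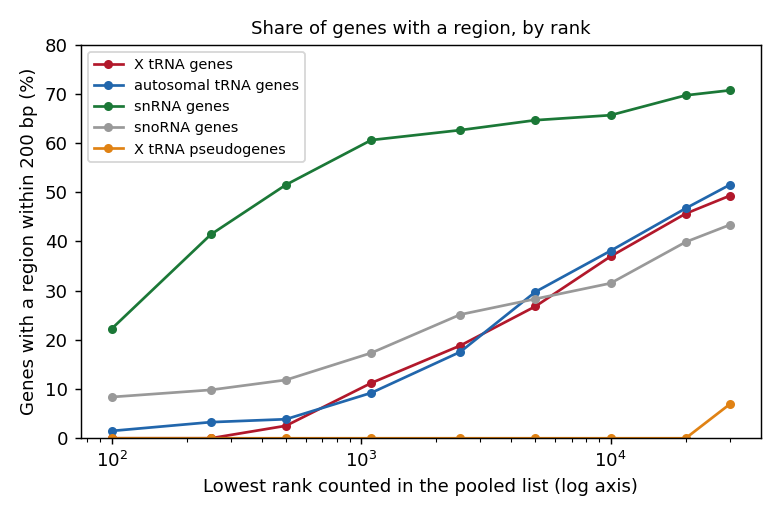
Share of genes (%, vertical axis) with a region within 200 bp among the ranks up to the limit on the horizontal axis (pooled list, log axis), for X tRNA, autosomal tRNA, snRNA and snoRNA genes and for X tRNA pseudogenes. The X and autosomal tRNA lines run together from rank 1099 (11.2% and 9.23%) to rank 30000 (49.3% and 51.5%), while 60.6% of the 99 snRNA genes already have a region at rank 1099.

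The first region lay at a pair of tRNA genes read away from each other. M02F4.t2, a tRNA-Glu gene (X, 3035976 to 3036047, minus strand), and M02F4.t1, a tRNA-Gly gene (X, 3036164 to 3036235, plus strand), lie outside protein-coding genes and share 1 region. Its signal was 68.4 in the pooled list, 38.2 in replicate 1 and 31.2 in replicate 2. It was strong in all 3 lists. The summit stood 34 bp past the start of the tRNA-Gly gene and 151 bp before that of the tRNA-Glu gene, so the region was nearer to M02F4.t1. Next came C04A11.t1, a tRNA-Leu gene whose sequence occurs once among the nuclear tRNA genes (X, 13665555 to 13665673, plus strand), with a pooled signal of 68.2, 38.0 in replicate 1 and 28.4 in replicate 2, and a summit 21 bp before the gene. C04A11.t1 is 1 of 12 X tRNA genes that hold an intron of their own.

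Of the tRNA-Tyr genes 2 were strong in every list. R11.t1 (X, 16209769 to 16209852, minus strand, outside protein-coding genes) had a signal of 59.5 in the pooled list, 33.9 in replicate 1 and 28.5 in replicate 2, with the summit 26 bp upstream. C02B4.t2 (X, 12665228 to 12665311, in an intron of the nuclear hormone receptor gene nhr-17 on the opposite strand) had 42.4, 21.2 and 23.9 in the same order, with the summit 31 bp upstream. Both have the same sequence, whose 6 genome copies all lie on X. In all, 4 of the 8 X tRNA-Tyr genes had a candidate region, each of them in all 3 lists, and all 8 hold an intron. Over the 12 X tRNA genes with an intron, which are 8 tRNA-Tyr, 3 tRNA-Leu and 1 tRNA-Ile, 3 had a strong region (25.0%, interval 8.89 to 53.2%), and all 3 were strong in every list. Of the 264 without an intron 28 had one (10.6%, 7.44 to 14.9%), and 9 were strong in every list. The interval for the intron-containing genes covers the share of the others.

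The next genes of the order differed more between the replicates. The tRNA-Glu gene rte-1 (X, 14015944 to 14016015, plus strand) had a pooled signal of 55.4, with 32.7 in replicate 1 and 18.7 in replicate 2, and a summit 32 bp inside the gene. C04E7.t1, a tRNA-Leu gene near the left end of X (353255 to 353336, minus strand), had 54.9 in the pooled list, 19.3 in replicate 1 and 35.8 in replicate 2, with its summit 32 bp upstream. R04A9.t1, a tRNA-Gln gene in an intron of hrg-11.4, had 49.7, 40.1 and 15.1 in that order of lists, and its replicate 2 value was under the limit for strong there, 16.7. The last 3 of the first 10 were R04D3.t2, F59C12.t2 and C02B4.t2. R04D3.t2 is a tRNA-Val gene with 44.0 in the pooled list, 20.7 in replicate 1 and 25.2 in replicate 2 and a summit 7 bp upstream. F59C12.t2 is a tRNA-Asp gene in an intron of F59C12.3 with 43.7, 29.6 and 10.2 in that order, and a summit 45 bp inside the gene. Of these 10 genes 8 were strong in every list, and R04A9.t1 and F59C12.t2 were strong only in the pooled list and in replicate 1.

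The rank of a strong region often differed between the replicates. All 31 genes with a strong pooled region had a region in both replicate lists, each at rank 5000 or better. The pooled list is made from the same reads, so this is partly built in. Of these, 22 were strong in replicate 1, 20 in replicate 2, 12 in both, and 1 in neither. Strong in all 3 lists were thus 12 of the 276 X tRNA genes (4.35%, interval 2.50 to 7.44%). On the autosomes, where 31 genes were also strong in the pooled list, it was 19 of 336 (5.65%, 3.65 to 8.66%). Among the 645 other X genes within the length range of the X tRNA genes it was 8 (1.24%, 0.630 to 2.43%). The share of all nuclear genes that were strong in all 3 lists was not counted. The signal of the 31 strong X tRNA genes in replicate 1 was 11.3 at the lowest, 21.0 at the median and 40.1 at the highest. In replicate 2 the same values were 9.79, 19.3 and 35.8. The median rank was 740 in replicate 1 and 826 in replicate 2. In the other direction, some genes were strong in 1 replicate list and weak or missing elsewhere; those named here were chosen after their values were seen. The tRNA-Thr gene K08H2.t1 had the highest replicate 2 signal of any X tRNA gene, 43.0 (rank 223), and no region in replicate 1 or in the pooled list. That summit lay 264 bp past the start of this gene of 72 bp, near the far edge of the window. The neighbouring tRNA-Pro genes C16B8.t2 and C16B8.t3 shared a region of 19.7 in replicate 1 (rank 826), with none in replicate 2. In the pooled list C16B8.t2 had 17.2 and C16B8.t3 none. The replicate 1 summit lay 196 bp before C16B8.t3, also near the edge of the window. At K08H2.t1 and C16B8.t3 a missing region can therefore mean a summit just outside the window. F28H6.t1, a tRNA-Arg gene (X, 14115691 to 14115763), leaned to replicate 2, with 12.8 in replicate 1 and 27.3 in replicate 2. F56C3.t1, a tRNA-Gly gene (X, 1379603 to 1379674), leaned the other way and was chosen after its values were seen, with 27.0 in replicate 1 and 9.79 in replicate 2. Spearman's rho between the signal values of replicate 1 and replicate 2 was 0.600 over the 86 X tRNA genes found in both lists, and 0.584 over 79 genes when each pair of regions was counted once. For 124 autosomal tRNA genes it was 0.548. These coefficients run across genes of the same pair of libraries and are descriptions.

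**Figure D2:**
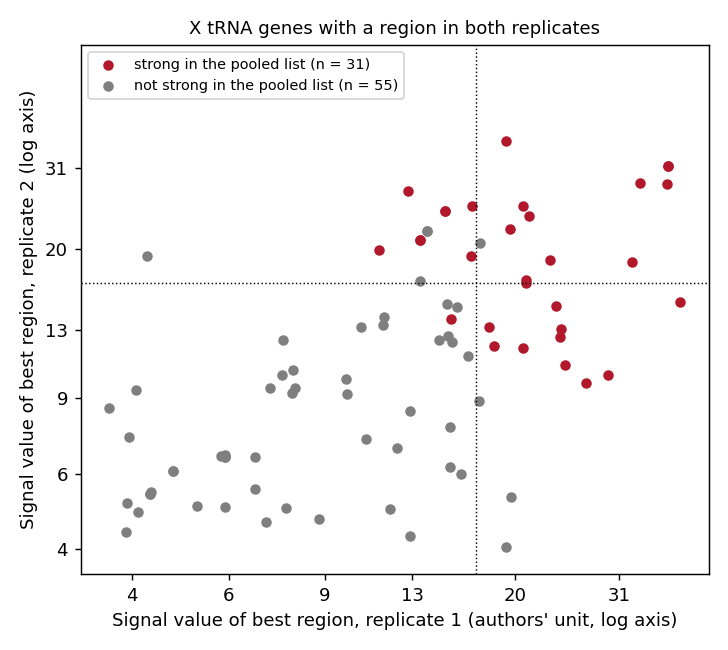
Signal value of the best region in replicate 1 (horizontal) and replicate 2 (vertical), both on log axes, for the X tRNA genes with a region in both replicate lists, one point per gene; dotted lines mark the limit for strong in each replicate list (17.0 and 16.7). The 31 genes that are strong in the pooled list fill the upper right, 12 of them beyond both lines.

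The weaker regions were another matter. The 105 X tRNA genes with a candidate region that was not strong had a median pooled signal of 13.2, and 54 of them had a region in both replicates while 12 had one in neither. The authors' −log10 of the q value was 2.37 to 2.71 for the strong regions in the pooled list. For the weaker regions it was 0.0254 to 2.23 with a median of 0.216. A value of 2 or more was reached by 34 of the 276 genes in the pooled list, by 47 in replicate 1 and by 26 in replicate 2. The share of all genes that reached it was not counted. At strong regions the pooled median was 2.71, equal to the highest value, so the q value did not rank the upper ones. The lists were deposited with background regions in them. At the limit itself the values run on without a gap. F32A6.t1, a tRNA-Phe gene in an intron of the stomatin family gene sto-2, stood just inside at 32.5 (rank 1047), with 17.9 in replicate 1 and 13.2 in replicate 2. F38G1.t2, a tRNA-Asp gene in an intron of the fibroblast growth factor gene egl-17, stood inside at 32.3 (rank 1052), with 24.2 in replicate 1 and 12.5 in replicate 2. Just outside were F34H10.t1, a tRNA-Ala gene, at 31.0 (rank 1116), with 13.4 in replicate 1 and 16.8 in replicate 2, and F41D9.t3, a tRNA-Asn gene, at 30.7 (rank 1142), with 17.3 and 20.7. Both replicate values of F41D9.t3 were above the replicate limits.

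The strong regions were spread over the isotypes rather than gathered in one. Of the 20 isotypes on X, each had at least 1 gene with a candidate region, and 15 had at least 1 with a strong region. tRNA-Leu and tRNA-Glu had the most, with 4 strong of 17 genes and 4 strong of 23 genes. tRNA-Gly had 3 of 20 and tRNA-Pro 3 of 20, and tRNA-Arg, the largest group on X, had 2 of 27. In the pooled list no strong region lay beside the 18 tRNA-Ser genes (0%, interval up to 17.6%), of which 11 had a weaker one with a highest pooled signal of 25.9. The 13 tRNA-Ile, 7 tRNA-Cys, 6 tRNA-Asn and 5 tRNA-Trp genes also had 0 strong regions in that list. In the replicate lists some of these passed the limit. A pair of tRNA-Ser genes, C53C7.t1 and C53C7.t2, shared a strong region in replicate 2 (22.1, rank 629), the tRNA-Ile gene C02B4.t1 had one in replicate 1 (19.7, rank 828), and the tRNA-Asn gene F41D9.t3 had one in each. The first 3 of these genes were picked for these values. tRNA-Ala had the highest share with a candidate region, 10 of 13 genes (76.9%, 49.7 to 91.8%), and tRNA-His the lowest, 2 of 9 (22.2%, 6.32 to 54.7%). These intervals overlap, and no isotype was tested against the rest. The 3 genes whose product has no isotype (C28G1.t5, F47E1.t3 and K02D3.t1) had no region in the pooled list.

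For the further isotypes with a strong region, the leading gene had a pooled signal between 32.5 and 41.8. C33G3.t2 led the tRNA-Lys genes with 41.8 in the pooled list, 23.2 in replicate 1 and 18.9 in replicate 2, and was strong in all 3. F15G9.t2 and F15G9.t1 are a pair of tRNA-Ala genes in an intron of him-4, the hemicentin gene, and share a region of 41.2, with 14.9 in replicate 1 and 24.6 in replicate 2; the summit lay 22 bp upstream of F15G9.t2. F22F1.t6, tRNA-Met, had 39.8, with 19.6 in replicate 1 and 22.3 in replicate 2. It was also strong in every list. R01H5.t1, tRNA-Thr, had 38.2, with 24.3 in replicate 1 and 13.1 in replicate 2, and C06G1.t1, tRNA-His, had 37.7, with 23.7 and 14.8. F46G11.t2, tRNA-Pro, had 35.0, with 13.4 in replicate 1 and 21.1 in replicate 2, and shares its region with a second tRNA-Pro gene, F46G11.t1. The leading tRNA-Arg gene was F28H6.t1, with 40.6 in the pooled list. F22F1.t6 and C33G3.t2 were thus the only ones of these 7 isotype leaders that passed the limit in every list.

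**Figure D3:**
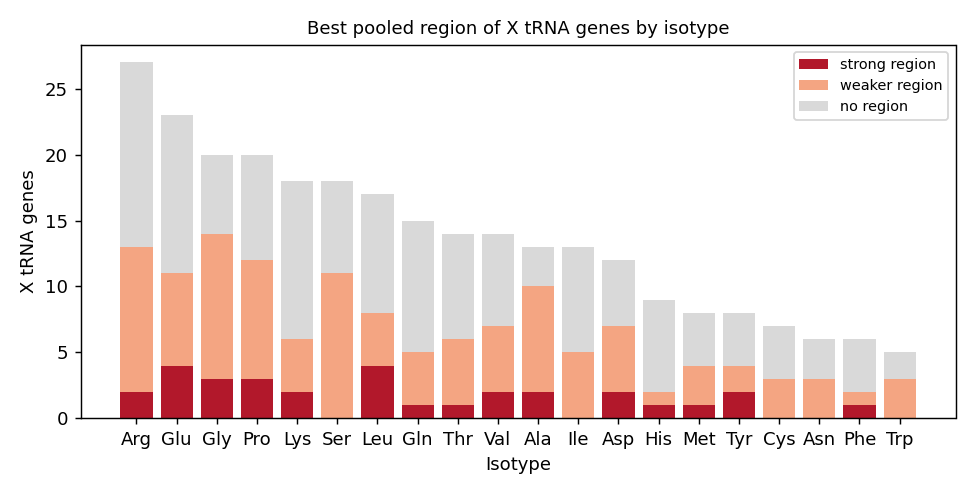
Number of X tRNA genes (vertical axis) of each isotype (horizontal axis), split into genes with a strong region, with a weaker candidate region and with no region in the pooled list; the 3 genes with no isotype are left out. Strong regions appear in 15 of the 20 isotypes, at most 4 in one.

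Genes with the same sequence mostly fell on both sides. The 276 genes have 106 distinct sequences, and 57 of them have a sequence found once among all nuclear tRNA genes. There were 33 sequences with 2 or more genes on X, 203 genes in all, and in 30 of the 33 some X copies had a pooled candidate region and others had none. In 2 every X copy had one, and in 1 no copy did. The tRNA-Glu sequence of rte-1 has 20 genome copies, 12 of them on X. Of those 12, rte-1 had 55.4, M02F4.t2 shared the 68.4 of its neighbour, F52E10.t5 had 9.41 and K08B5.t2 7.94. The other 8 had no pooled region, and 7 of them, rte-3 included, had none in any list. rte-5 had 4.04 in replicate 2 alone. The tRNA-Gly sequence of M02F4.t1 has 11 X copies, 9 with a candidate region and 2 strong, and the 13 X copies of the commonest tRNA-Pro sequence had 8 and 3. The 10 copies of 1 tRNA-Arg sequence all lie on X, where 7 had a candidate region and 1 was strong. Copies other than the leading ones were described after their values were seen.

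The strong share of single-copy genes depended on the list. Among the 57 genes with a unique sequence 23 had a candidate region (40.4%, interval 28.6 to 53.3%) and 2 a strong one (3.51%, 0.968 to 11.9%), C04A11.t1 and F32A6.t1. Among the 219 with a shared sequence these were 113 (51.6%, 45.0 to 58.1%) and 29 (13.2%, 9.38 to 18.4%). In replicate 1 alone 5 of the 57 unique and 23 of the 219 shared genes were strong, and in replicate 2 alone 1 of 57 and 25 of 219. Within the shared ones the strong share did not climb with copy number. It was 5 of 31 for 2 to 5 copies, 7 of 53 for 6 to 10 and 17 of 135 for 11 or more, with 29 the highest copy number. How reads that map to several copies were treated is not given in the sources used here, and its part in these counts was not tested.

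The summits of the strong regions were divided between the gene and the bases just before it. On the strand of the gene, with 0 at its 5′ end, the median summit position was 12 bp. Of the 31 strong genes 14 had the summit upstream (45.2%, interval 29.2 to 62.2%), 14 inside the gene and 3 downstream. Among the 14 upstream ones the median position was −29, and 12 lay within 60 bp of the gene. Among the 14 inside the median was 28. The regions themselves had a median width of 360 bp, against a median tRNA gene length of 72 bp. The position shifted between replicates. In replicate 1 the summits of the same 31 genes were upstream at 13, inside at 17 and downstream at 1, and in replicate 2 at 16, 11 and 4. The replicate summits of a gene differed by a median of 47 bp and at most 125 bp. In 17 genes the summit had the same place in all 3 lists, upstream in 9 and inside in 8. The fragments were selected for 150 to 350 bp, per the labels.

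Summits at X tRNA genes with a strong region lay upstream less often than those at autosomal ones, by an amount that depended on how the genes were chosen. The pooled share upstream was 14 of 31 on X (45.2%) and 24 of 31 on the autosomes (77.4%, interval 60.2 to 88.6%), and the median position was 12 bp on X and −26 bp on the autosomes. Without the 11 autosomal genes above the first X signal, 13 of 20 were upstream on the autosomes (65.0%, 43.3 to 81.9%). For the genes chosen by the pooled list, the replicate 1 summit was upstream at 13 of 31 on X (41.9%) and at 19 of 29 on the autosomes (65.5%), and the replicate 2 summit at 16 of 31 on X (51.6%) and at 25 of 29 on the autosomes (86.2%). The 29 are the strong autosomal genes with a region in all 3 lists. For the genes chosen by each replicate list itself the gap was smaller. Among those strong in replicate 1 the share upstream was 53.6% of 28 on X and 60.6% of 33 on the autosomes. In replicate 2 it was 57.7% of 26 on X and 65.6% of 32 on the autosomes. The difference between X and the autosomes was not tested.

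**Figure D4:**
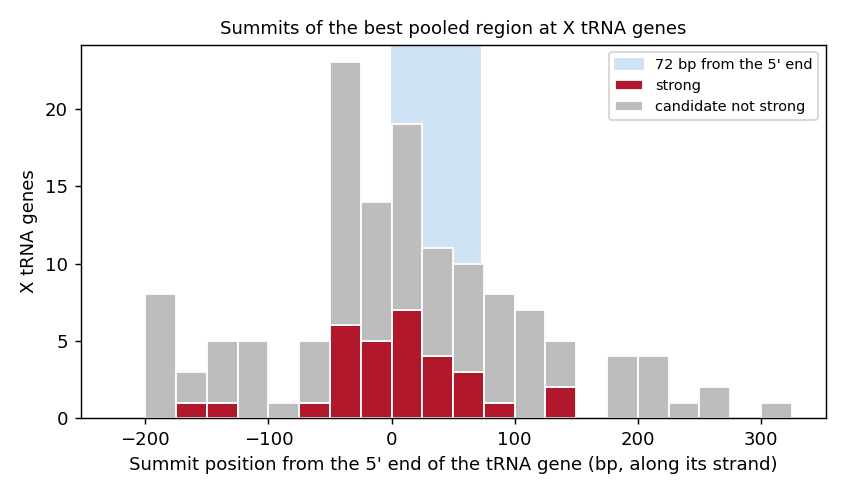
Position of the pooled summit from the 5′ end of the tRNA gene (bp along its strand, 25-bp bins, horizontal axis) and number of X tRNA genes (vertical axis, stacked), for genes with a strong region and with a weaker candidate region; shading marks the 72 bp of a gene of median length. Most strong summits lie between 50 bp upstream and 75 bp past the 5′ end.

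The bases before the gene differed between genes with and without a region. The 100 bases upstream had a median G+C content of 47.0% at the 31 genes with a strong region, 43.0% at the 105 with a weaker one and 36.5% at the 140 with none. The ranges were 30.0 to 62.0%, 28.0 to 58.0% and 16.0 to 56.0%, so the groups overlapped widely. The quartiles were 41.0 and 50.0% at strong regions and 32.0 and 41.0% at genes with no region. On X as a whole G+C was 35.2%. The difference lay on 1 side of the gene. At 40 to 60 bases upstream the G+C content was 47.4% for strong genes, 42.8% for weaker ones and 36.3% for genes with no region, whereas 40 to 60 bases downstream of the 3′ end it was 33.1%, 30.1% and 30.8%. In the 20 bases just upstream of the gene the values were closer, at 46.8%, 44.5% and 43.1%. Farther out, 180 to 200 bases upstream, the G+C content was 32.6%, 33.3% and 35.7%. By base, on the strand of the gene, C made up 26.7% of the 100 upstream bases at strong genes and 19.5% at genes with no region, and A made up 24.5% and 31.0%. G was 19.3% and 17.1%, and T was 29.5% and 32.5%. The difference was thus mostly one of more C and less A. These are values over all genes of a set, and single genes varied.

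**Figure D5:**
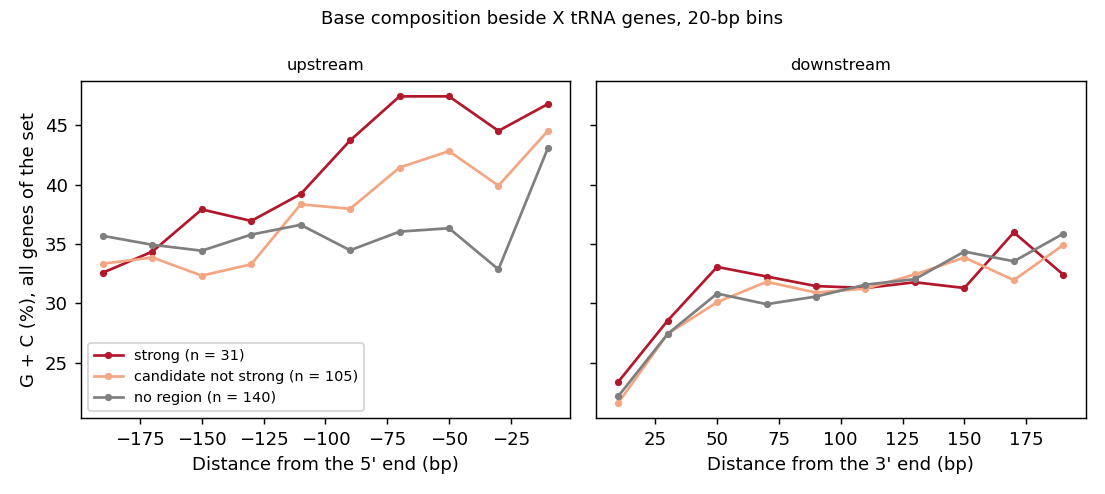
G+C content (%, vertical axis) in 20-bp bins upstream of the 5′ end (left) and downstream of the 3′ end (right) of the X tRNA genes, by distance in bp (horizontal axes); lines stand for genes with a strong region, with a weaker candidate region and with no region, all genes of a set together. The 3 lines separate within about 100 bp upstream, up to 47.4% against 36.3%, and run together downstream.

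The upstream G+C content moved the same way on the autosomes and outside genes. At autosomal tRNA genes the upstream median was 47.0% for strong, 46.0% for weaker and 40.0% for no region. For X tRNA genes outside protein-coding genes it was 48.5% at 20 strong genes and 36.0% at 90 with no region. For those in introns it was 42.0% at 11 strong genes and 38.0% at 50 with no region. Within 200 bp of the summit, the median G+C content was 43.9% for strong regions of X and 35.9% for all its candidate regions. That window is not the upstream stretch used for the tRNA genes, so it cannot be set beside the upstream values. In the flanking bases of X tRNA genes the median was 35.5% for strong, 34.5% for weaker and 33% for no region. X as a whole had 35.2%. G+C content can affect how a region is amplified and called, and its part in these counts was not tested. The base content was examined after the regions were known and was given no test.

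The internal promoter letters were about as frequent in strong genes as in the others. The motifs were searched on the strand of the gene, in the gene body with any intron included, and N stands for any base. The B box letters GTTCNANNC were in 268 of 276 X tRNA genes (97.1%) and in 94.9% of autosomal ones, against 58.6% of the 29 X tRNA pseudogenes and 5.89% of the other X genes of the same length range. Those other X genes include tRNA pseudogenes of that length, and genes that overlap a tRNA gene were not taken out. Of the 31 strong X tRNA genes 30 had the B box letters. The core GTTCGA, which overlaps these letters, was in 200 X tRNA genes (72.5%), of which 22 were strong (11.0%). Of the 76 genes without the core 9 were strong (11.8%). The A box letters TNGCNNA were in 150 (54.3%), 15 of them strong, and TGGCNNA, a narrower form of the same motif, in 77 (27.9%), 7 of them strong. TNGCNNA was also in 57.4% of autosomal tRNA genes, 24.1% of the X tRNA pseudogenes and 20.5% of the other X genes of the same length range. A run of 4 or more T within 20 bases past the 3′ end, the usual Pol III stop signal, followed 273 of the 276 genes (98.9%) and all 31 strong ones. It followed 97.9% of autosomal tRNA genes and was not counted at other genes. Those 20 bases had a G+C content of only 23.4% at strong genes and 22.2% at genes with no region. The letters CTGTTTC, known from the upstream motif of piRNA genes, to which SNPC-4 also binds, were searched on both strands in the 100 bases upstream. They were there at 10 X tRNA genes (3.62%), 1.79% of autosomal tRNA genes and 15.5% of all nuclear genes. The nuclear genes include annotated piRNA genes, whose own upstream motif this is, and these were not counted apart. The 15.5% is therefore not a share for other genes, and the tRNA shares cannot be called low against it. Of the 10, 2 were strong, C06G1.t1 and F46G11.t2. A match is a run of letters and not a shown binding site.

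The strong X tRNA genes had no small RNA neighbour. Of the 276 genes only M163.t2, a tRNA-Lys gene, had an snRNA, spliced leader RNA or snoRNA gene within 500 bp, the snoRNA gene M163.14, and it had no region in any list. None of the 31 strong genes had a protein-coding transcript start within 200 bp of the summit, and 2 of the 136 with a candidate region did. Other non-coding genes do overlap many X tRNA genes in the annotation, 19 of the 31 strong ones (61.3%), 53 of the 105 weaker ones (50.5%) and 88 of the 140 with no region (62.9%). ChIP-seq has no strand, so a region at such a place cannot be told apart between the genes.

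In the pooled list the strong share was about the same outside protein-coding genes and in introns. Of 180 X tRNA genes outside protein-coding genes 90 had a candidate region and 20 a strong one (11.1%, interval 7.31 to 16.5%). Of 95 in introns 45 had a candidate region and 11 a strong one (11.6%, 6.59 to 19.6%). In replicate 1 alone 17 of the 180 and 10 of the 95 were strong, and in replicate 2 alone 20 and 6. Strong in all 3 lists were 11 of the 180 and 1 of the 95, C02B4.t2. On the strand of the host gene 5 of 50 were strong, and on the opposite strand 6 of 45. The 108 genes with another tRNA gene within 500 bp had a candidate region in 44 cases (40.7%, 31.9 to 50.2%) and a strong one in 10 (9.26%), and the 168 that lie alone had 92 (54.8%, 47.2 to 62.1%) and 21 (12.5%). Along the chromosome, cut into 3 equal stretches from the left end, 11 of 51 genes in the first stretch were strong (21.6%), 6 of 107 in the middle one (5.61%) and 14 of 118 in the last (11.9%). The shares with a candidate region were 58.8%, 46.7% and 47.5% in the same order. Other X genes were not counted by stretch, so these shares cannot be read as particular to tRNA genes. The stretches were not tested against each other.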

How the data were processed

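ChIP-seq of eGFP-tagged SNPC-4 was deposited as 2 replicate libraries of 1 group. Per the deposited file descriptions, the authors made each list from alignments and a control; the pooled list combines both replicates. Per those files, each region has a signal value, relative to the control and in a unit not stated, the −log10 of a q value, and the summit's distance from the region start, deposited in bp. For aligner, peak caller, versions and read depth: not given in the sources used here. Regions were called per library and on the pooled libraries.

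Computed here (Python 3.11.15, pandas 2.3.3, numpy 2.4.6, scipy 1.17.1): RefSeq WBcel235 tRNA genes on X were tied to the region with the highest signal and a summit within 200 bp of the gene body; the tie was tested on simulated data. The ce10 lists were used only for their number of thresholded peaks, 1099, which sets the rank limit for strong. No test was run, since there is 1 group, and nothing says that the replicates came from separate cultures. Named were the 10 genes with the highest pooled signal, the highest gene of each isotype with a strong region, strong genes with a small RNA neighbour and the 2 genes on each side of the limit; others are said to be chosen after their values were seen. Members and lists were chosen with earlier results of these data known. Alternatives were the distance, the list, the rank limit, the tie, copies and neighbours.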

Additional observations from a re-analysis of the deposited data

How the results depend on the processing

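Each X tRNA result was recomputed under the alternatives. Of 44 alternative values 33 stayed within the limits set for them (counts within 1.5 times, medians within the SD of the replicate medians, shares within their interval). Some of the 33 could not move. Only M163.t2 has a small RNA neighbour, and it had no region in any list, so leaving out such genes changed nothing. For the same reason the count of strong genes with such a neighbour could be only 0 or 1. The strong count of 31 was 7 with the ranks up to 549 and 51 with the ranks up to 2198, and 2 when only genes with a unique sequence were counted. The candidate count of 136 was then 23. These alternatives count fewer ranks, more ranks or fewer genes by construction. Outside the 44 values, the ranks up to 250 held 0 X tRNA genes, so the count of strong genes rests on the ce10 number. The median pooled signal of 16.0 was 19.2 with summits within 100 bp, 15.5 within 500 bp, 16.5 with each region given to its nearest tRNA gene and 12.9 for genes with a unique sequence. In the list of 1 replicate alone it was 10.1 to 10.7, on that list's own scale. Strong genes with a small RNA neighbour were 0, and 1 with summits within 500 bp, where 37 genes were strong. The candidate count ran from 112 to 129 and the strong count from 26 to 28 in 1 replicate alone. The share of strong summits upstream ran from 37.8% within 500 bp to 57.7% in replicate 2 alone. No paired analysis was possible because the 2 replicates form 1 group. Read depth is unknown and limits what a missing region can show.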

Other observations

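Annotated tRNA pseudogenes gave a comparison within the same chromosome. Of the 29 tRNA pseudogenes of X, 2 had a candidate region in the pooled list (6.90%, Wilson interval 1.91 to 22.0%), 0 had one in all 3 lists and 0 had a strong one (up to 11.7%). These were F19G12.t1 at 7.75, with 7.82 in replicate 2, and C14E2.t1 at 6.83, with 4.18 in replicate 2, both under the median signal of the pooled list. Of the 180 tRNA pseudogenes of chromosomes I to V, 25 had a candidate region (13.9%, 9.59 to 19.7%), 4 had one in all 3 lists (2.22%) and 0 a strong one. The B box letters GTTCNANNC were in 17 of the 29 X pseudogenes.

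Several X tRNA genes carry names from genetics, and their values are given here after they were seen. The tRNA-Trp genes sup-7, sup-21, sup-28 and sup-33, known from amber suppressor mutations, share 1 sequence with 10 genome copies. sup-7 had a pooled signal of 20.4, with 15.2 in replicate 1 and 6.23 in replicate 2, and a summit 17 bp upstream. sup-21 had 8.58 in the pooled list alone, and sup-28 and sup-33, both in introns of trk-1, had no region. The fifth X tRNA-Trp gene, rtw-5, has a unique sequence and had 15.8, with 7.52 in replicate 1 and 10.2 in replicate 2, and a summit 25 bp upstream.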
